A study of Mus musculus with 2 samples.

Results

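The miR-125 and miR-99/100 families were examined in exosomes of murine pancreatic cells through 8 mature miRNAs: mmu-miR-125a-5p, mmu-miR-125a-3p, mmu-miR-125b-5p, mmu-miR-125b-1-3p, mmu-miR-125b-2-3p, mmu-miR-99a-5p, mmu-miR-99b-5p and mmu-miR-100-5p. They were picked by name from the 1881 mouse miRNAs of the array. The rule uses no measured value, but it was written when earlier results of these data were known. KPC-exosomes came from the supernatant of a pancreatic cancer cell line that had been derived from tumour tissue of mice carrying KrasLSL-G12D/+, Trp53LSL-R172H/+ and Pdx1-Cre, in which Cre recombinase is driven by the promoter of a pancreatic transcription factor. MPDC-exosomes came from a purchased murine pancreatic ductal epithelial cell line and served as the control. KPC cells were kept in RPMI-1640 with 20% FBS and MPDC cells in DMEM with 10% FBS, so that cell line, medium and serum cannot be told apart. Both preparations were pelleted by differential ultracentrifugation. Their RNA carried the dye Cy3 and was measured on 1 array per condition, both on the same slide. No difference below therefore has a replicate check in the array data, and no SD across samples, p-value or test is given. The paper reports RT-qPCR for selected miRNAs, and miR-125b-5p is among the highly expressed ones it selected. Those measurements were not used here. The errors printed are those of the scanner for 1 array and cover neither the culture nor the exosome preparation. For bright probes they are close to a fixed share of the signal, so a difference counted in scanner errors is not a test.

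A miRNA gene is transcribed into a hairpin, and either strand of the trimmed hairpin can enter an Argonaute protein as the 5p or the 3p arm. The bases from 2 to 8 of a mature miRNA, its seed, pair with target mRNAs and largely set which mRNAs are repressed. miR-125 is the vertebrate relative of lin-4, the first miRNA described in the nematode, and with let-7 it represses Lin28 during development. The miR-99/100 family is an old animal miRNA family, known for repressing mTOR, a kinase downstream of insulin and PI3K/Akt signalling. In the mouse, a gene of each family lies with a let-7 gene in 3 clusters.

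The mature sequences of all 8 miRNAs were matched by name to RefSeq entries on GRCm38.p6 and are shown 5′ to 3′ with the seed in capitals, because the seed is what divides the families. The 5p arms of the miR-125 family share 1 seed, and their first 13 bases are the same.
miR-125a-5p: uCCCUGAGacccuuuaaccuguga
miR-125b-5p: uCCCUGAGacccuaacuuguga

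The 3p arms of the same hairpins carry 3 different seeds.
miR-125a-3p: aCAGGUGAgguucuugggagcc
miR-125b-1-3p: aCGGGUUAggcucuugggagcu
miR-125b-2-3p: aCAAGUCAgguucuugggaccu

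The miR-99/100 arms share another seed.
miR-99a-5p: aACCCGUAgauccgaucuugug
miR-100-5p: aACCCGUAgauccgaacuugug
miR-99b-5p: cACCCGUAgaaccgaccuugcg

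Counted from 1 at the 5′ end, miR-100-5p differs from miR-99a-5p by U16A alone. miR-99b-5p differs from miR-99a-5p by A1C, U11A, U16C and U21C, all of them outside the seed. Every member had the plus strand as its coding strand. On chromosome 9, miR-100-5p lies at chr9:41531437-41531458 and the Mir125b-1 copy of miR-125b-5p at chr9:41581940-41581961, both within the bounds of the non-coding host gene Mir100hg, with Mirlet7a-2 between them. On chromosome 16, miR-99a-5p lies at chr16:77598940-77598961 and the Mir125b-2 copy of miR-125b-5p at chr16:77646279-77646300, with Mirlet7c-1 between them. On chromosome 17, miR-99b-5p lies at chr17:17830194-17830215 and miR-125a-5p at chr17:17830817-17830840, within the bounds of the protein-coding gene Spaca6, with Mirlet7e between them. The annotation table used here gives gene bounds without exons, so exonic and intronic positions were not assigned. miR-125b-5p is identical from both of its genes, and its signal cannot be divided between chromosomes 9 and 16.

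Signals are background-subtracted intensities in arbitrary units. A probe was taken as detected when its total signal exceeded 3 times its error, and the signals of its detected probes were added up for each miRNA. Of the 1881 miRNAs, 772 were detected on the KPC array, 1031 on the MPDC array and 726 on both, and no spot was saturated. Over those 726 the median log2 difference, KPC-exosomes minus MPDC-exosomes, was -1.37 without normalization, while 4 spike-in control features differed by -0.31 to 0.38. Quantile normalization, which gives both arrays the same distribution of values and matches the deposited log2 values, moved that median to 0.53 and the spike-in differences to between 1.18 and 2.43. Differences are therefore given first without normalization and then after quantile normalization. The pluripotency markers, the arms of the clusters that start with miR-290 and miR-302, were all detected on the MPDC array (11 of 11, summed signal 484290) and in part on the KPC array (6 of 11, summed signal 657). Of the 7 epithelial markers, such as the miR-200 family, 7 were detected in MPDC-exosomes and 5 in KPC-exosomes, with summed signals of 1781 and 98.8, and miR-205-5p and miR-203-3p were not detected in KPC-exosomes. Of the 5 pancreas markers, 1 was detected on each array, miR-217-5p at 60.9 in KPC-exosomes and miR-148a-3p at 1190 in MPDC-exosomes, and miR-216a-5p, miR-216b-5p and miR-375-3p on neither. Of 5 mesenchymal markers, none was detected in KPC-exosomes and 5 in MPDC-exosomes (summed signal 226), and 7 blood cell markers summed to 721 in KPC-exosomes and 604 in MPDC-exosomes, with 5 detected on each array. The part of these markers in the differences below was not tested.

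Of the 8 members, 7 were detected on both arrays, and miR-125b-1-3p on neither. Without normalization, 4 of the 7 were at least 2-fold higher in KPC-exosomes: miR-99a-5p, miR-100-5p, miR-125b-5p and miR-125a-5p. This fold was reached by 11.1% of the 1077 miRNAs detected on at least 1 array. After quantile normalization 7 of 7 reached it, beside 31.5% of the 1077, and after scaling to the 75th percentile 6 of 7, beside 24.7%. No member was at least 2-fold lower in KPC-exosomes under any of these scalings, beside 68% of the 1077 without normalization, 42.7% after quantile normalization and 46.1% after scaling to the 75th percentile. The median log2 difference of the 7 was 1.09 without normalization (range -0.70 to 4.11), 2.63 after scaling to the 75th percentile and 4.04 after quantile normalization. That 4.04 is the value of miR-125b-2-3p, whose signals of 5.67 and 4.51 were near the detection limit. Quantile normalization added 3.71 to it. All 7 lay above the median of the 726 miRNAs under each scaling.

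**Figure D1:**
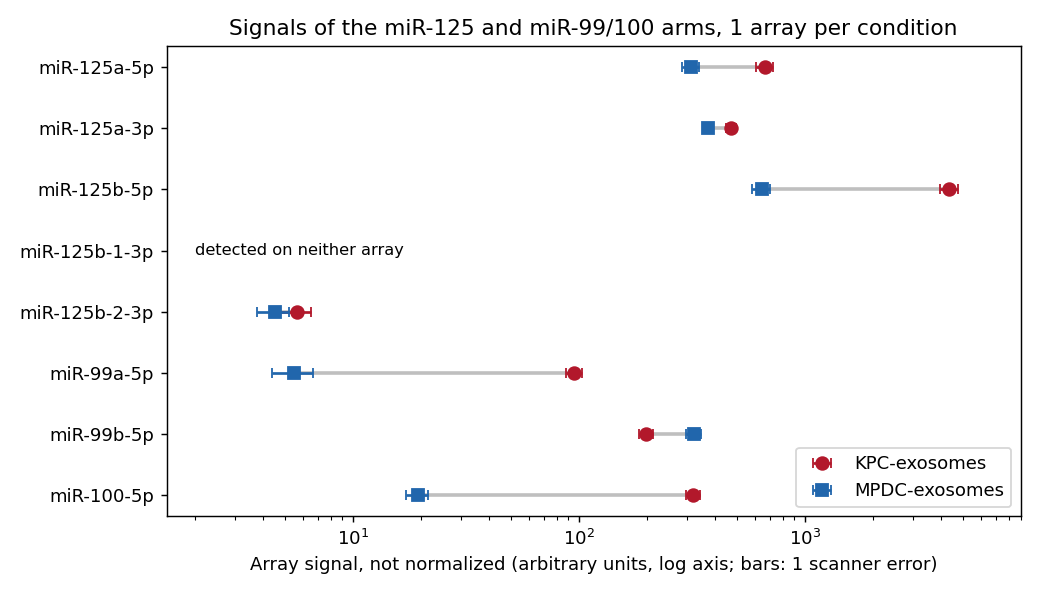
Array signal of each member without normalization, on a log axis in arbitrary units, in KPC-exosomes (red circles) and MPDC-exosomes (blue squares). Bars show 1 scanner error. The widest gaps are those of miR-99a-5p (95.6 against 5.52) and miR-100-5p (321 against 19.4), and the order is turned for miR-99b-5p (199 against 323).

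miR-125b-5p, the arm best known from haematopoietic stem cells and leukaemia, gave a signal of 4351 ± 391 (scanner error) in KPC-exosomes and 645 ± 58.5 in MPDC-exosomes. It was 6.74-fold higher in KPC-exosomes, a log2 difference of 2.75 ± 0.18, and 4.77 after quantile normalization. By unnormalized difference it ranked 24 among the 726 miRNAs detected on both arrays, counted from the most KPC-high. Both of its probes showed the difference, at 2.89 and 2.74 on the log2 scale. The spots of its second probe lay between 12939 and 14600 on the KPC array and between 2032 and 2206 on the MPDC array, so that the spot ranges did not overlap. Such separation was common, found for 86.1% of the 2233 probes detected on at least 1 array.

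miR-125a-5p, which carries the same seed, gave 668 ± 58.6 in KPC-exosomes and 314 ± 27.1 in MPDC-exosomes. It was 2.12-fold higher, a log2 difference of 1.09 ± 0.18 without normalization and 2.62 after quantile normalization. Its probes gave 0.89 and 1.12, and the spots of neither probe overlapped between the arrays. The difference of miR-125b-5p exceeded that of miR-125a-5p by 1.67 ± 0.26 on the log2 scale, which is 6.52 scanner errors.

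Without normalization, the detected 3p arms of the miR-125 hairpins differed less than the 5p arms. miR-125a-3p, with a seed of its own, was at 470 ± 23.6 in KPC-exosomes and 372 ± 18.9 in MPDC-exosomes, with a log2 difference of 0.34 ± 0.10. Of its 4 probes, 3 were higher in KPC-exosomes (0.45 to 0.54) and the fourth was at -0.07 with overlapping spots. The quantile-normalized difference was 1.95. From the same hairpin, the 5p arm thus differed by 0.75 ± 0.20 more than the 3p arm without normalization.

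miR-125b-2-3p was near the detection limit, at 5.67 ± 0.89 in KPC-exosomes with 3 of 4 probes detected and at 4.51 ± 0.74 in MPDC-exosomes with 2 of 4. The log2 difference of 0.33 ± 0.33 was about 1 scanner error. Summed over all 4 probes, detected or not, the signals were 7.03 and 7.08, and the spots of every probe overlapped. Its direction was not settled: the 1 probe detected on both arrays gave -0.34, and the unnormalized difference was -0.19 without the first probe and -0.32 without the second. Quantile normalization raised this difference to 4.04, an addition of 3.71, whereas it added between 1.53 and 2.02 to the members with signals above 10 on both arrays. Without normalization this arm was 1.26-fold higher in KPC-exosomes, under the 2-fold call that it met after quantile normalization. miR-125b-1-3p had no detected probe among its 4 on either array. Its probes summed to 1.65 and 1.24, beside lowest detected miRNA signals of 1.41 in KPC-exosomes and 1.51 in MPDC-exosomes.

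The spread between the miR-99/100 arms was wider. miR-99a-5p gave 95.6 ± 8.12 in KPC-exosomes and 5.52 ± 1.14 in MPDC-exosomes. It was 17.3-fold higher, a log2 difference of 4.11 ± 0.32 that ranked 9 of 726. On the MPDC array its first probe was not detected, with spots from -3.41 to 8.12, and the value rests on the second probe, whose spots lay between 16.3 and 27.8 against 214 to 305 on the KPC array. From that second probe alone the log2 difference was 3.82. After quantile normalization the difference of miR-99a-5p was 7.86, an addition of 3.75 to a value that rests on the low MPDC signal.

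miR-100-5p gave 321 ± 24.2 in KPC-exosomes and 19.4 ± 2.08 in MPDC-exosomes, 16.6-fold higher, with both probes detected on both arrays. Its log2 difference was 4.05 ± 0.19, which ranked 11 of 726, and its probes gave 4.38 and 3.92. No spot of either probe overlapped between the arrays. After quantile normalization its difference was 5.88.

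Without normalization, the differences of miR-99a-5p and miR-100-5p lay 0.06 ± 0.37 apart, within the scanner error, and after quantile normalization 1.98 apart. Quantile normalization added 3.75 to miR-99a-5p and 1.83 to miR-100-5p. Their probes are almost the same sequence. The second probe of each is shown 5′ to 3′, as DNA and complementary to the miRNA, with the base that differs in capitals (A7T, counted from 1 at the 5′ end).
miR-99a-5p probe: cacaagAtcggatctacgg
miR-100-5p probe: cacaagTtcggatctacgg

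Whether each of these probes measured its own miRNA alone was not tested. Mismatches were counted without gaps, with each probe set on the 3′ end of the miRNA. Counted in this way, the remaining members had at least 2 mismatches between a probe and any other member. The probes of miR-99b-5p held at least 3 to miR-99a-5p. Those of miR-125b-5p held at least 5 to miR-125a-5p, and those of miR-125a-5p at least 6 to miR-125b-5p. These last 2 arms are 22 and 24 bases long and were not aligned with gaps, so their counts may overstate how far the probes stand apart.

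miR-99b-5p shares the seed of miR-99a-5p and miR-100-5p and had the opposite order of signals, 199 ± 14.7 in KPC-exosomes and 323 ± 24.5 in MPDC-exosomes. Its log2 difference was -0.70 ± 0.15, a signal 1.63-fold lower in KPC-exosomes, with -0.54 and -0.78 for its 2 probes and no overlap of spots. It was the only member below 0 without normalization, and it still lay 0.67 above the median of all miRNAs. After quantile normalization its difference was 1.01, just past 2-fold, so that its direction depended on the scaling. The differences of miR-99a-5p and miR-100-5p exceeded that of miR-99b-5p by 4.82 ± 0.36 and 4.75 ± 0.24 without normalization and by 6.86 and 4.87 after it. The 6.86 takes in the 3.75 that quantile normalization added to miR-99a-5p, beside 1.71 added to miR-99b-5p.

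**Figure D2:**
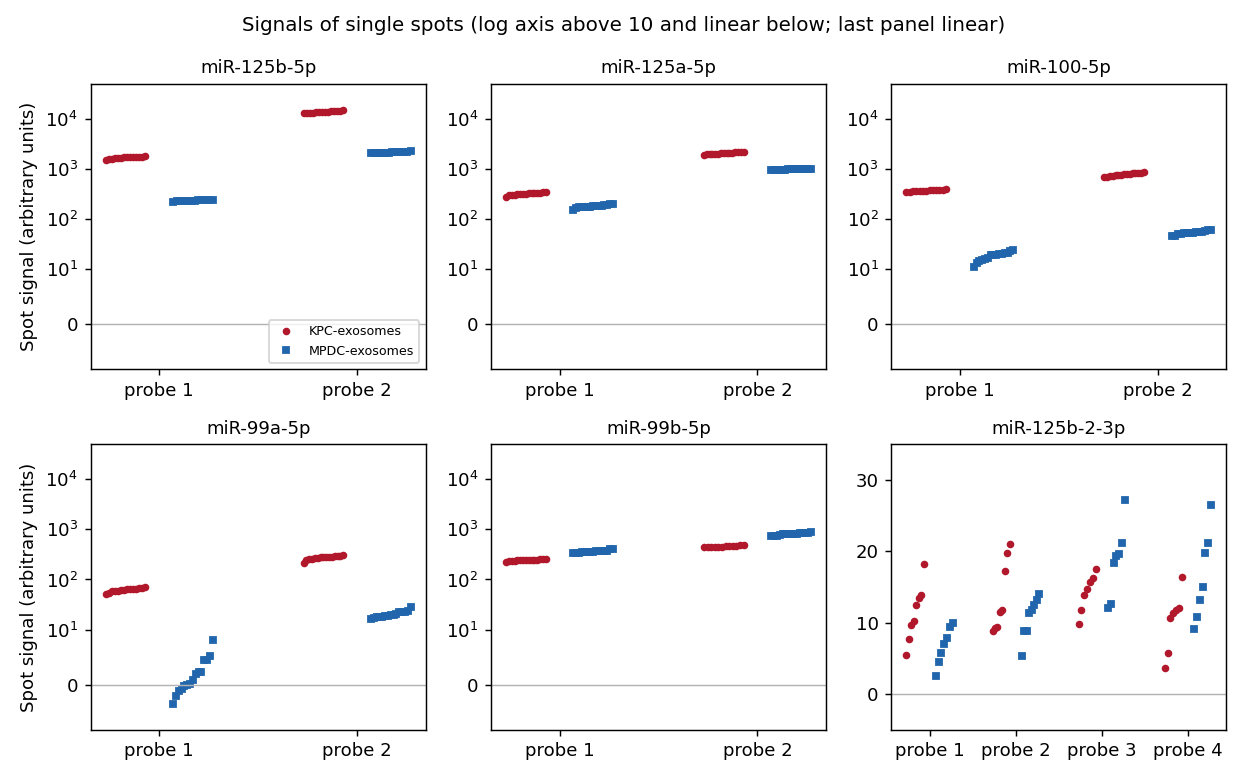
Background-subtracted signals of single spots for each probe of 6 members, in arbitrary units, on the KPC array (red circles) and the MPDC array (blue squares). Spots of one probe are sorted by signal. The arrays are separated for both probes of miR-125b-5p, miR-125a-5p, miR-100-5p, miR-99a-5p and miR-99b-5p, with miR-99b-5p in the opposite order, and overlap for every probe of miR-125b-2-3p.

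Across the 22 probes of the 8 members, all of which were complementary to their own miRNA, 14 were detected on both arrays. Of the 18 detected on at least 1 array, 13 had spot ranges that did not overlap, a share below the 86.1% of all such probes, so that separated spots set no member apart from other miRNAs. Where a probe signal was at least 50, the coefficient of variation between its spots ranged from 0.83% to 8.34%. For the same probes the signal was 9.87 to 10.0 times its scanner error. The scanner error thus hardly followed the measured variation of the spots, and a count of scanner errors measures no significance. Spots of a probe repeat the measurement of 1 RNA sample and are not replicates of a condition.

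**Figure D3:**
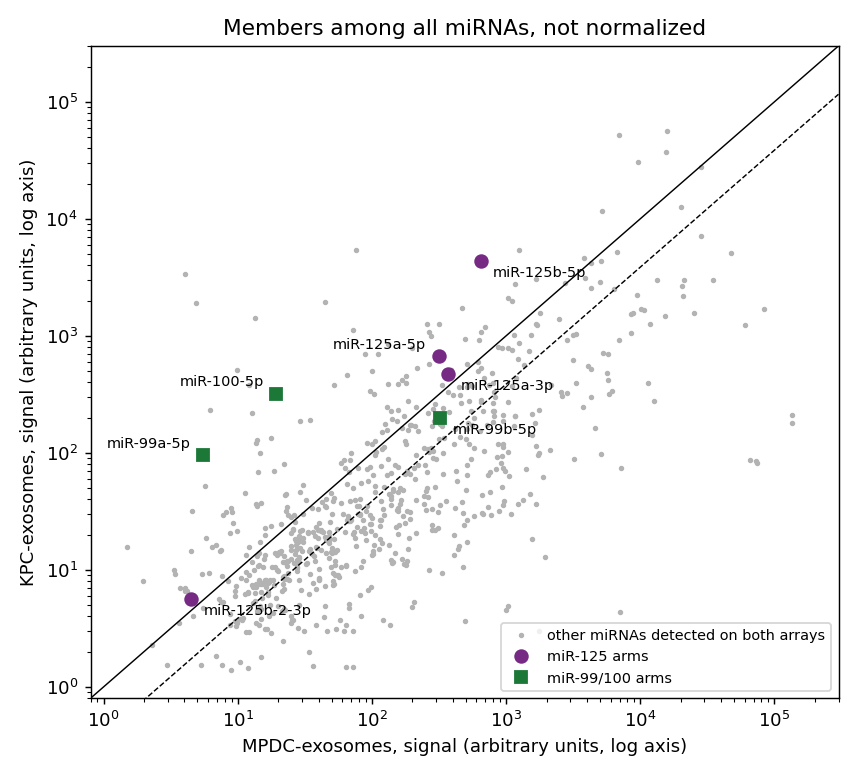
Signals of the 726 miRNAs detected on both arrays, without normalization and on log axes in arbitrary units, with the miR-125 arms as purple circles and the miR-99/100 arms as green squares. The solid line marks equal signals and the dashed line the median log2 difference of -1.37. All 7 detected members lie above the dashed line, and miR-99b-5p alone lies below the solid one.

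The other arms of the miR-99/100 hairpins gave 1 detected miRNA of 3. miR-99a-3p and miR-100-3p were detected on neither array. miR-99b-3p was at 22.8 ± 1.61 in KPC-exosomes and 86.6 ± 4.48 in MPDC-exosomes, which is a log2 difference of -1.93 ± 0.13 and a signal 3.80-fold lower in KPC-exosomes. After quantile normalization the difference was -0.05. Both arms of the miR-99b hairpin were thus lower in KPC-exosomes without normalization, with the 5p arm 1.22 ± 0.20 above the 3p arm.

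The let-7 arms of these clusters were compared with the members, since let-7, like miR-125, is known for repressing Lin28. let-7a-5p was at 2100 ± 174 in KPC-exosomes and 1032 ± 85.1 in MPDC-exosomes, which is a log2 difference of 1.02 ± 0.17. let-7c-5p was at 4091 ± 355 and 638 ± 56.0, a difference of 2.68 ± 0.18. let-7e-5p was at 1196 ± 96.2 and 694 ± 56.6, a difference of 0.79 ± 0.17. let-7a-5p and let-7c-5p also arise from genes outside these clusters. The probes of let-7a-5p are almost the same sequence as those of let-7c-5p and let-7e-5p. Whether each of these let-7 probes measured its own miRNA alone was not tested. Of the let-7 3p arms, let-7a-1-3p, let-7a-2-3p and let-7c-1-3p were detected on neither array, and let-7e-3p on the KPC array alone, at 1.54 through 1 of its 4 probes. Of these, let-7a-1-3p comes from Mirlet7a-1 on chromosome 13, outside the 3 clusters.

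By cluster, the mean log2 difference of the 5p arms was 2.61 for Mir100, Mirlet7a-2 and Mir125b-1, 3.18 for Mir99a, Mirlet7c-1 and Mir125b-2, and 0.39 for Mir99b, Mirlet7e and Mir125a, without normalization. The cluster on chromosome 17 thus differed by -2.51 from the mean of the other 2, and by -3.05 after quantile normalization. The same value of miR-125b-5p entered both of those clusters, and let-7a-5p and let-7c-5p also arise from genes elsewhere. The contrast therefore compares sets of arms and not the output of separate loci. The miR-99/100 arm and the miR-125 arm of a cluster did not keep to one value. On chromosome 9, miR-100-5p exceeded miR-125b-5p by 1.30 ± 0.26, and on chromosome 17, miR-125a-5p exceeded miR-99b-5p by 1.79 ± 0.23.

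**Figure D4:**
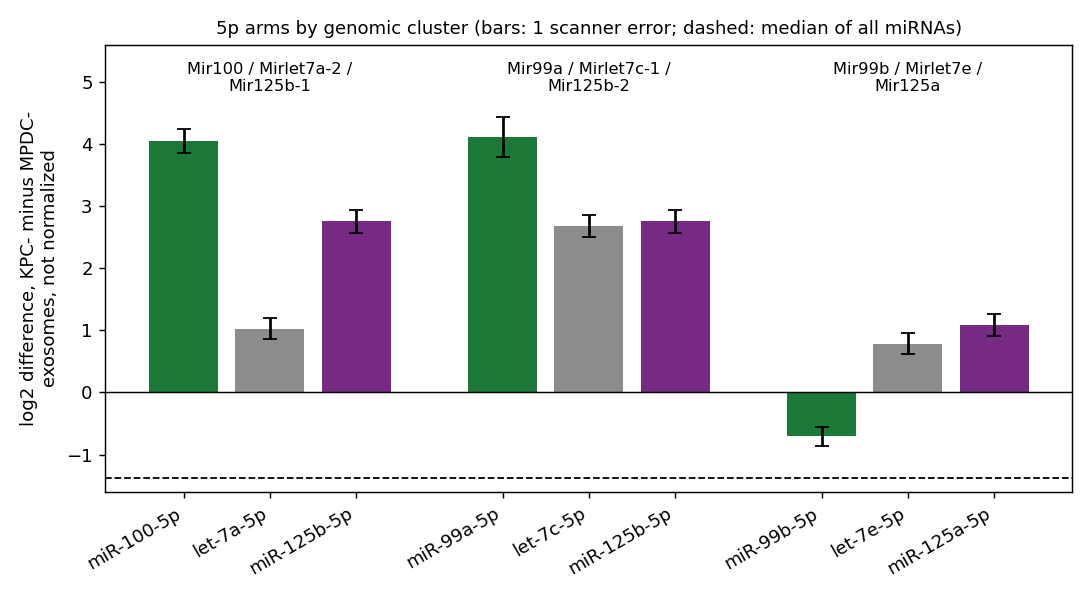
Log2 difference, KPC-exosomes minus MPDC-exosomes, of the 5p arms without normalization, by genomic cluster, with the miR-99/100 arm in green, let-7 in grey and the miR-125 arm in purple. Bars on the columns show 1 scanner error, the dashed line marks the median of all miRNAs at -1.37, and miR-125b-5p is drawn in both clusters that hold a gene for it. The columns of the third cluster, from -0.70 to 1.09, are lower than those of the second, from 2.68 to 4.11, and overlap those of the first, from 1.02 to 4.05.

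The seed of miR-125a-5p and miR-125b-5p is carried by 3 further miRNAs on the array, shown here because the seed is the usual basis of shared targets.
miR-351-5p: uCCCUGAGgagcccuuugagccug
miR-6367: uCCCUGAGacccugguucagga
miR-6394: uCCCUGAGuggggccaggucu

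miR-351-5p, which belongs to a cluster on the X chromosome, was detected in KPC-exosomes alone, at 5.76 ± 0.72 through 1 of 4 probes, while its 4 probes summed to 0.69 on the MPDC array. miR-6367 was also detected in KPC-exosomes alone, at 12.7 ± 1.63, while its 2 probes summed to -0.71 on the MPDC array. No fold is given for either, since the MPDC array gives no signal to divide by. miR-6394 went the other way, at 78.1 ± 5.83 in KPC-exosomes and 510 ± 42.4 in MPDC-exosomes, 6.53-fold lower without normalization. Its log2 difference was -2.71 without normalization and -0.996 after quantile normalization. The miRNAs with this seed thus had no common direction without normalization. No other miRNA on the array matched to RefSeq carried the seed of miR-99a-5p, miR-99b-5p and miR-100-5p.

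Among 382 miRNAs detected on both arrays with a signal of at least 100 on 1 or more arrays, the 3 whose unnormalized difference was nearest to the 2.75 of miR-125b-5p were miR-7648-3p (2.70), miR-142a-3p (2.69) and let-7c-5p (2.68). This likeness rests on 2 samples and on 1 difference per miRNA.

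**Figure D5:**
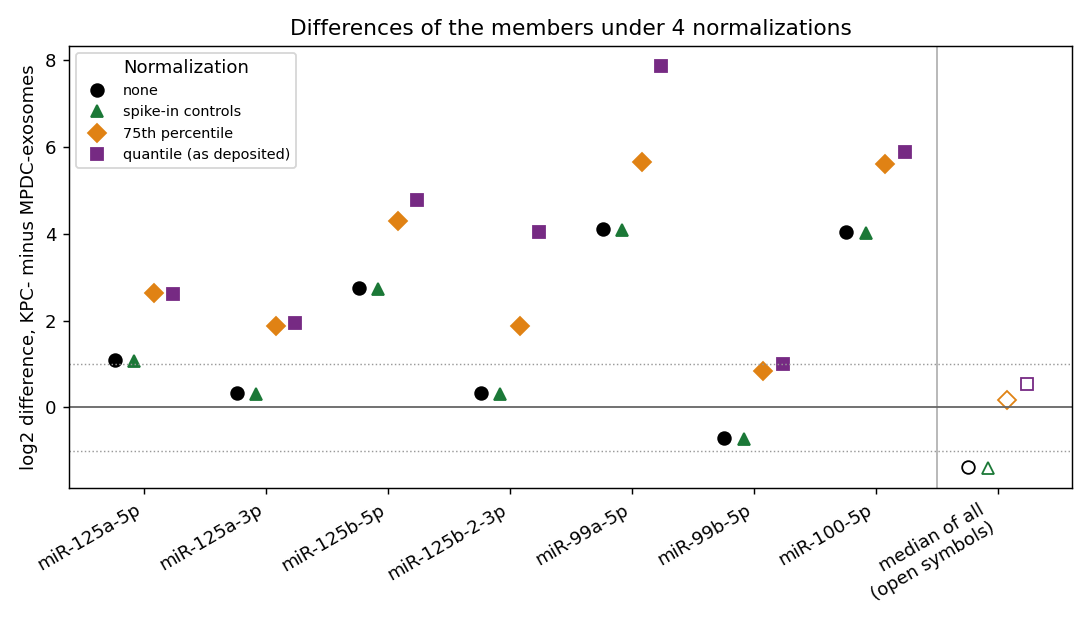
Log2 difference, KPC-exosomes minus MPDC-exosomes, of the 7 detected members under 4 scalings (none, spike-in controls, 75th percentile and quantile), with the median over the 726 miRNAs as open symbols and dotted lines at 2-fold. miR-99b-5p lies at -0.70 and -0.73 under the first 2 scalings and at 0.84 and 1.01 under the others, and miR-125b-2-3p moves from 0.33 to 4.04.

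In the order of the unnormalized differences, miR-99a-5p and miR-100-5p were near 4 on the log2 scale and did not differ beyond the scanner error. miR-125b-5p followed, 4.91 scanner errors below miR-100-5p, and then miR-125a-5p. miR-125a-3p lay 3.65 scanner errors below miR-125a-5p, and its 0.34 was not separated from the 0.33 ± 0.33 of miR-125b-2-3p. miR-99b-5p was last at -0.70. Relative to the median of all miRNAs, the same differences were 5.48 and 5.42 for miR-99a-5p and miR-100-5p, 4.13 for miR-125b-5p, 2.46 for miR-125a-5p, 1.71 and 1.70 for miR-125a-3p and miR-125b-2-3p, and 0.67 for miR-99b-5p.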

How the data were processed

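The authors deposited the Agilent Feature Extraction output of both 1-colour arrays, which holds intensities on a linear scale, namely background-subtracted signals of spots and probes with their errors. The labels give version 9.1 and the file headers 10.7.1.1. A second deposited table holds log2 values for each miRNA, made by the authors in GeneSpring with a normalization that is not given in the sources used here.

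Total signals of the probes above 3 errors were summed per miRNA, a miRNA without such a probe was set to 0.1, and the log2 values were quantile normalized over 1881 miRNAs and 21 control features. The result lay within 1.11e-05 of all 1902 deposited log2 values. A call needed detection on at least 1 array and a 2-fold difference. Scanner errors were combined in quadrature. With 1 array per condition no test was made, and the number of arrays limits the precision. A miRNA detected on 1 array alone was given no printed fold, but it entered the calls with its other signal at 0.1. Spots with outlier flags were left out of the spot values.

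Besides the members, named miRNAs were the other arms of their hairpins, listed let-7 arms (of the same clusters, with let-7a-1-3p and let-7c-2-3p, named for genes elsewhere), miRNAs with a shared seed, the 3 miRNAs nearest to miR-125b-5p, and the marker lists. let-7c-2-3p, 1 of 8 listed let-7 arms, was matched by no name on the array. The members and lists were chosen with earlier results of these data known. RefSeq names on GRCm38.p6 matched 1608 of the 1881 miRNAs, and the probe positions in the files, on another build, were not used. The scaling and calling steps were checked on simulated signals with known folds, which tests none of the measured differences. Alternatives were other scalings (none, the 75th percentile, the median, spike-in controls, quantiles restricted to the 726 detected on both arrays, the deposited values), processed spot signals, normexp with an offset of 50, other rules for probes, and a 4-fold threshold. The work was done in R 4.3.3 (limma 3.58.1) and Python 3.11.15 (matplotlib 3.10.9, pandas 2.3.3, numpy 2.4.6).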

Additional observations from a re-analysis of the deposited data

How the results depend on the processing

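The direction of miR-99b-5p reversed to -0.73 with spike-in scaling and to -0.70 without normalization, against 1.01 after quantile normalization. The other 6 detected members were higher in KPC-exosomes under each alternative changed singly from quantile normalization, with differences of 2.32 to 7.86 for miR-99a-5p, 3.53 to 8.34 for miR-100-5p, 2.73 to 4.77 for miR-125b-5p, 1.06 to 2.79 for miR-125a-5p, 0.31 to 2.12 for miR-125a-3p and 0.31 to 4.50 for miR-125b-2-3p. With a probe left out and no normalization, a pairing added after the data were seen, miR-125b-2-3p turned to -0.19 and -0.32 (without its first or second probe), and miR-125a-3p fell to 0.27. Under quantile normalization miR-100-5p rose from 5.88 to 8.34 without its first probe and to 8.12 without its second. The unnormalized values of miR-100-5p were then 3.92 and 4.38. Its MPDC signal was 19.4 with both probes, 14.4 without the first and 4.94 without the second. The cause of these shifts was not tested.

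The number of members at least 2-fold higher, 7 after quantile normalization, was 4 without normalization and 4 with spike-in scaling, and stayed between 5 and 7 otherwise. After quantile normalization their median difference was that of miR-125b-2-3p, which was near the detection limit. The median difference of the members, 4.04, became 1.09 without normalization, 1.06 with spike-in scaling, 2.63 with the 75th percentile, 2.71 with the median, 2.53 with quantiles over miRNAs detected on both arrays, 2.59 with processed spot signals, 2.32 with normexp, 3.18 with the brightest probe and 2.51 with probes detected on both arrays. The contrast of the chromosome 17 cluster, -3.05, became -2.51 when the arrays were left unscaled or scaled by spike-in controls, the 75th percentile or the median, -2.60 with quantiles over miRNAs detected on both arrays, -2.52 with processed spot signals, -1.81 with normexp, -2.91 with the brightest probe and -2.53 with probes detected on both arrays.

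Quantile normalization gave 339 higher and 460 lower calls among all miRNAs. Without normalization these were 120 and 732, with spike-in scaling 119 and 740, with quantiles over miRNAs detected on both arrays 195 and 205, with normexp 139 and 178, and with probes detected on both arrays 183 and 197. A bound from the lowest detected signal had no member to apply to, since none was detected on 1 array alone, and without its second probe miR-99a-5p was not detected on the MPDC array. Signals near the detection limit, those of miR-125b-2-3p and of miR-99a-5p on the MPDC array, carry the weakest measurements. No paired analysis was possible because each condition had 1 array.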
